A study of Mus musculus with 19 samples.

Results

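Pax7, Pax3 and 8 genes of the Notch pathway were followed in 19 RNA-seq libraries of primary myoblasts, the muscle precursor cells, isolated from hind-limb muscle of mice and differentiated in culture. The 10 genes were a list of names: the receptors Notch1, Notch2 and Notch3, the ligands Dll1 and Jag1, the effectors Hes1, Hey1 and Heyl, and both Pax factors. They were 10 of 35675 genes to which transcripts were summed, and all 10 were among the 15129 genes that passed the filter on low counts. The cells were labelled WT, the control, or Glud1KO, deficient in the glutamate dehydrogenase Glud1. Each label was sampled as proliferating myoblasts after 24 h in growth medium, as differentiated myotubes at 48 h and as fused myotubes at 72 h. The WT label had 3, 3 and 4 libraries at these stages and the Glud1KO label had 3, 2 and 4. The sources used here give no allele, Cre driver, strain or age for these cells, and they do not say whether the numbered replicates were separate animals or separate cultures, so p-values measure only the spread between these libraries.

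Library depth ran from 16168131 to 30742634 estimated counts. Levels are given as CPM, the usual count scaled to a common library size, here from estimated counts after TMM scaling (trimmed mean of M-values). The targeted gene did not separate the labels as a gene total in CPM. Glud1 measured 192, 191 and 184 CPM in WT-labelled myoblasts and 190, 185 and 186 CPM in Glud1KO-labelled myoblasts, and its adjusted p (edgeR) was 0.851, 0.195 and 0.750 at 24, 48 and 72 h. The labels did separate in the part of the Glud1 counts assigned to the 699-base noncoding transcript Glud1-202. That share was 7.98% to 13.2% in the 10 WT-labelled libraries and 4.72% to 7.34% in the 9 Glud1KO-labelled libraries. When counts were corrected for effective transcript length, Glud1 was called lower under the Glud1KO label at all 3 stages, with log2 fold changes of -0.26, -0.31 and -0.34. Glud1's deposited TPM (transcripts scaled for length), summed per gene, did not overlap between the labels at any stage. Under the WT label it was 163 to 175, 79.5 to 86.2 and 101 to 106 at 24, 48 and 72 h. Under the Glud1KO label it was 136 to 142, 58.9 to 64.5 and 75.7 to 82.6. Which exons the mutation removes is not given in the sources used here. The names of the deposited files differ from the labels, since they mark WT-labelled files KO and Glud1KO-labelled files KOT; the labels were followed, and directions below are those of the labels. The defining muscle genes were present, with Myod1 at 284 to 869 CPM over all libraries. Of the other cell types, 6 endothelial markers summed to 0.267 to 1.25 CPM and 6 leukocyte markers to 0.314 to 1.78 CPM per library, and Emcn was at 0 in every library. The 6 pericyte and smooth muscle markers summed to 33.7 to 182 CPM, mostly Rgs5 in myoblasts and Abcc9, a potassium channel subunit that muscle also makes, later. Of these 6, Higd1b was at 0 in every library and Kcnj8 reached at most 0.0668 CPM. The 4 Schwann cell markers summed to 1.67 to 4.34 CPM.

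Satellite cells, the stem cells of skeletal muscle, carry the paired-box transcription factor Pax7, and some also carry its relative Pax3. Both factors are lost as the cells become committed to differentiate. In Notch signalling, a Delta-like or Jagged ligand on a cell binds a Notch receptor on its neighbour, the receptor is cut, and its freed inner part joins the DNA-binding protein Rbpj in the nucleus and switches on the repressors of the Hes and Hey families. In muscle, Notch signalling is known for holding satellite cells in the undifferentiated state.

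In the WT-labelled libraries, 8 of the 10 genes changed between myoblasts and differentiated myotubes, 6 of them lower and 2 higher at 48 h. Pax7, Pax3, Hes1, Jag1, Notch2 and Notch3 fell, and Dll1 and Notch1 rose. Calls were made with edgeR's quasi-likelihood test at an adjusted p under 0.05 (Benjamini-Hochberg over the 15129 genes). In the same comparison 85.0% of all genes tested were called, 42.4% higher and 42.6% lower, so the share of the 10 genes called was that of the transcriptome. Their median log2 fold change was -0.40, beside 0.02 for all genes tested. Between 48 and 72 h, 8 genes changed again, 6 lower and 2 higher, where 75.1% of all genes were called, 37.3% higher and 37.7% lower. Notch3, Notch1, Notch2, Pax7, Dll1 and Hey1 fell in that step, whereas Jag1 and Hes1 rose.

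In the Glud1KO-labelled libraries, 9 of the 10 genes changed from myoblasts to differentiated myotubes, 3 higher and 6 lower, against 83.7% of all genes (41.3% higher and 42.5% lower). The same 6 genes fell as under the WT label, and Heyl rose in addition to Dll1 and Notch1. Of these falls, that of Notch3 did not pass the test under either label once counts were corrected for effective transcript length (log2 fold change -0.25, adjusted p 0.219 under the WT label and -0.39, adjusted p 0.111 under the Glud1KO label, edgeR), beside -0.21 and -0.44 without the correction. From 48 to 72 h, 8 genes changed, 3 higher and 5 lower, against 70.2% of all genes (35.8% higher and 34.4% lower). The plot of levels by library shows these courses for each gene.

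**Figure D1:**
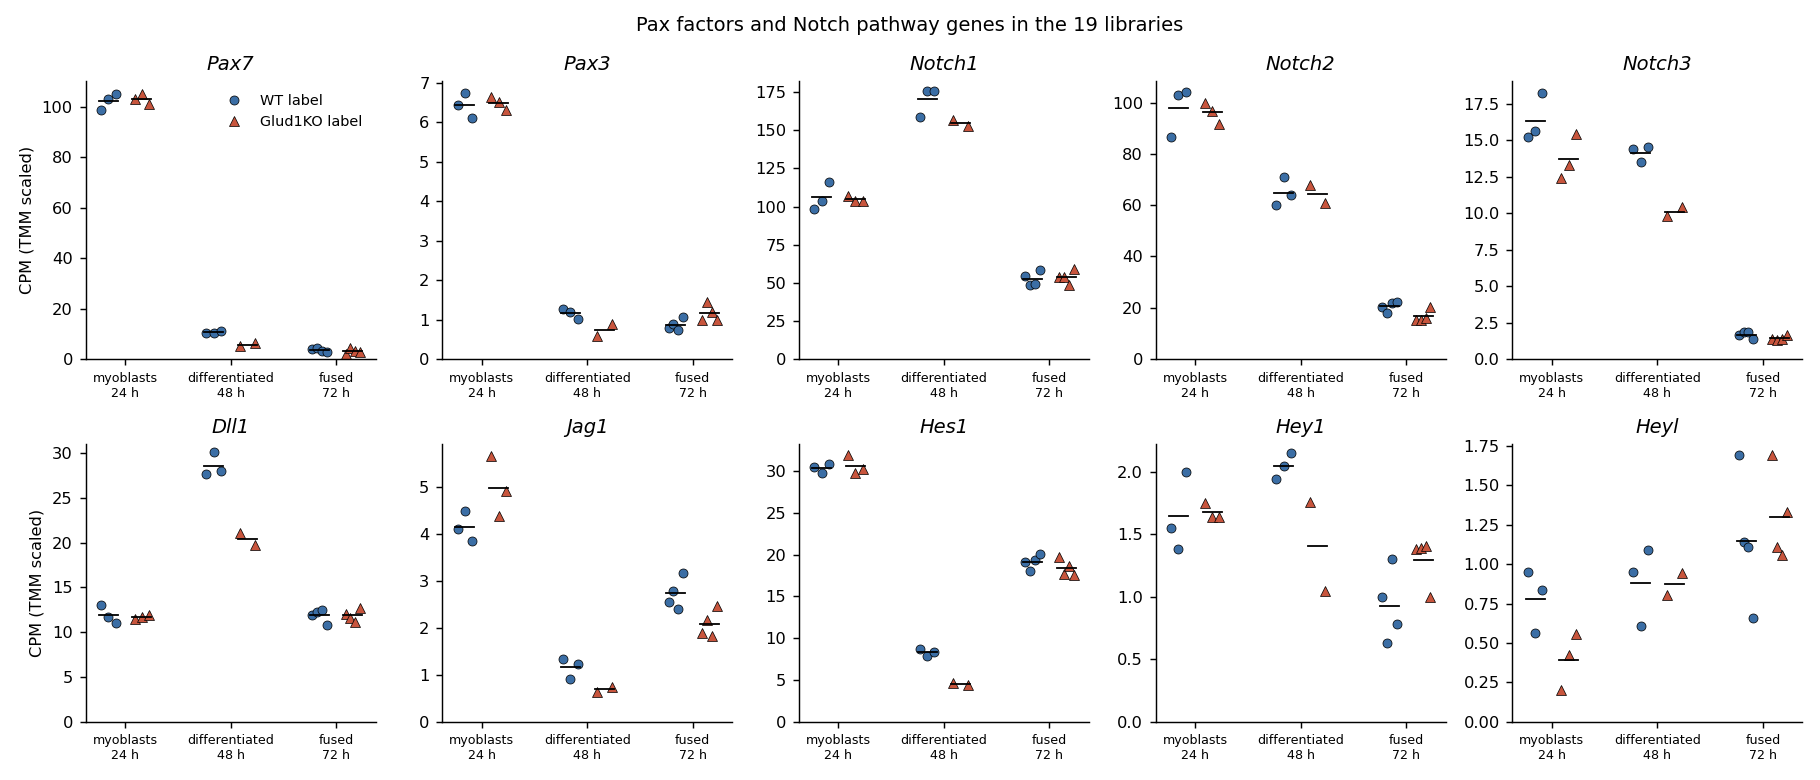
CPM of each of the 10 genes (y axis, linear, from 0) at the 3 stages (x axis) in the WT-labelled libraries (circles) and Glud1KO-labelled libraries (triangles), with a bar at the mean of each group. Pax7 falls from 98.8 to 105 CPM in all 6 myoblast libraries to under 12 CPM later, while Dll1 is highest and Hes1 lowest at 48 h.

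Pax7 was the more abundant Pax factor. Its locus lies at chr4:139737062-139833528 on the minus strand (GRCm38, GENCODE M21). The files hold 2 Pax7 transcripts and 3 Pax3 transcripts. The stretches where their coding sequences part are shown because they name the forms that the counts were assigned to. Capitals mark the bases from the point where the forms of a gene first part, 5′ to 3′ on the coding strand. For Pax7 most of these capitals are shared, since both forms run together again after the inserted bases of Pax7-202. The sequences are from GENCODE M21 on GRCm38 (Pax7-201 capitals chr4:139828660-139828704, Pax7-202 chr4:139828666-139828710, Pax3-201 chr1:78102801-78102833, Pax3-202 chr1:78103308-78103325).
Pax7-201: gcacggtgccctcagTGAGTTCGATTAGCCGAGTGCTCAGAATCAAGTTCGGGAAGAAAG
Pax7-202: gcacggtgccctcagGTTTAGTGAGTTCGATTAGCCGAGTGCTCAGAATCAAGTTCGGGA
Pax3-201: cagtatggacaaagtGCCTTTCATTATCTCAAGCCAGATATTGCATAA
Pax3-202: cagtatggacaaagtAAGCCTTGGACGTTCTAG
Pax7-202 carries 6 bases, GTTTAG, after coding base 451 that Pax7-201 lacks, and is otherwise collinear with it in the stretch shown. Pax3-201 and Pax3-202 share 1422 coding bases and end differently, with 33 and 18 bases of their own.

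Pax7-201 held 94.4% ± 1.42 (SD, n = 3) of the Pax7 counts in WT-labelled myoblasts and 94.7% ± 1.11 (SD, n = 3) in Glud1KO-labelled myoblasts. As whole transcripts Pax7-201 has 5854 bases and Pax7-202, the form with the inserted bases, has 1725. A share of counts therefore understates the part of Pax7-202 among molecules. Pax7-202 made up a small part of the counts in myoblasts under both labels. At 72 h its share was 0%, 4.54%, 10.1% and 10.9% in the WT-labelled libraries and 11.1%, 11.8%, 13.1% and 13.4% in the Glud1KO-labelled ones, on no more than 10.1 estimated counts in any library. Pax3 counts were split between its forms: in WT-labelled myoblasts Pax3-201 held 37.8%, 48.7% and 55.7%, and Pax3-202 held 57.1%, 48.6% and 42.8%. Under the Glud1KO label the shares of Pax3-201 were 55.0%, 48.0% and 32.0%, so the libraries of both labels overlapped. As whole transcripts Pax3-201 has 3078 bases and Pax3-202 has 3863.

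Pax7 fell at each step under both labels, and at 48 h it was lower in the Glud1KO-labelled libraries. It measured 98.8, 103 and 105 CPM in WT-labelled myoblasts, 10.2, 10.4 and 11.3 CPM in differentiated myotubes, and 4.11, 4.19, 3.33 and 2.80 CPM in fused myotubes. The Glud1KO-labelled values were 103, 105 and 101 CPM, then 5.08 and 6.19 CPM, then 2.13, 4.28, 3.02 and 2.80 CPM. The labels overlapped in myoblasts and in fused myotubes, and at 48 h both Glud1KO-labelled libraries lay below the lowest WT-labelled one. The 48 h difference was 1.89-fold (log2 fold change -0.92 ± 0.14 SE, adjusted p 1.03e-05, edgeR), and it was called in each of the 28 alternative settings, with log2 fold changes from -1.07 to -0.79. From 24 to 48 h Pax7 fell 9.57-fold under the WT label (adjusted p 4.03e-24, edgeR) and 18.3-fold under the Glud1KO label (adjusted p 1.94e-23).

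Pax3, at chr1:78101267-78197134 on the minus strand, had 3.34 TPM (transcripts scaled for length) against 26.6 TPM for Pax7 in WT-labelled myoblasts and followed it in the first step. It measured 6.43, 6.74 and 6.12 CPM in WT-labelled myoblasts, 1.28, 1.18 and 1.02 CPM at 48 h, and 0.776, 0.888, 0.740 and 1.07 CPM at 72 h. The Glud1KO-labelled libraries measured 6.64, 6.51 and 6.32 CPM, then 0.588 and 0.891 CPM, then 1.00, 1.45, 1.19 and 0.999 CPM. Both Glud1KO-labelled libraries at 48 h were below the WT-labelled ones, but the difference did not pass the test (log2 fold change -0.63 ± 0.26 SE, adjusted p 0.118, edgeR). Pax3 rose 1.58-fold from 48 to 72 h under the Glud1KO label (adjusted p 0.0416, edgeR), while under the WT label the log2 fold change was -0.38 ± 0.20 SE (adjusted p 0.136). The Glud1KO call was lost without Glud1KO differentiated replicate 1 (0.40, adjusted p 0.353), without Glud1KO fused replicate 2 (0.54, adjusted p 0.122) and without Glud1KO fused replicate 3 (0.65, adjusted p 0.0644). It was also lost with DESeq2 size factors (adjusted p 0.0563), the DESeq2 Wald test (0.0929), no filter (0.0665) and the groups compared fitted alone (0.0925). Wherever a Glud1KO differentiated library is left out, 1 library remains, and it is assumed to vary like those of the other groups. Pax3 rested on 11 to 232 estimated counts per library.

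The receptors did not share a course in the first step. Notch1, the most abundant of the 3, rose from myoblasts to differentiated myotubes under both labels, Notch2 fell, and all 3 fell from 48 to 72 h. Notch1 (chr2:26457903-26516663, minus strand) measured 98.2, 104 and 116 CPM in WT-labelled myoblasts, 159, 176 and 176 CPM at 48 h, and 54.3, 48.7, 49.3 and 58.7 CPM at 72 h. With the Glud1KO label it measured 107, 104 and 104 CPM, then 157 and 153 CPM, then 53.9, 53.5, 48.5 and 59.1 CPM. The labels overlapped at 24 and 72 h, and at 48 h the 2 Glud1KO-labelled libraries lay just under the lowest WT-labelled one, a difference that did not pass the test (log2 fold change -0.14 ± 0.068 SE, adjusted p 0.147, edgeR) and passed with library size alone (0.0361) and with no filter (0.0439). The rise by 48 h was 1.61-fold under the WT label and 1.47-fold under the Glud1KO label, and it shrank to log2 values of 0.20 and 0.11 when each library's trend with gene length and GC content was removed.

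Notch2 (chr3:98013527-98150361, plus strand) measured 86.6, 103 and 104 CPM, then 60.0, 71.0 and 63.8 CPM, then 20.4, 17.8, 21.8 and 22.4 CPM under the WT label. In the Glud1KO-labelled libraries it measured 100, 96.8 and 91.8 CPM, then 67.7 and 60.8 CPM, then 15.2, 15.2, 16.1 and 20.4 CPM. Notch2 was the single member called between the labels at 72 h, 1.24-fold lower under the Glud1KO label (log2 fold change -0.32 ± 0.10 SE, adjusted p 0.0305, edgeR), although the groups overlapped. That call was lost without WT fused replicate 1 (adjusted p 0.0575, edgeR), 3 (0.0685) or 4 (0.120), and without Glud1KO fused replicate 1 (0.0944), 2 (0.105) or 3 (0.0896), with log2 fold changes of -0.32 to -0.27, and with effective length (adjusted p 0.0833).

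Notch3 (chr17:32120820-32166852, minus strand), known for its expression in satellite cells and vascular muscle, was the least abundant of these 3 receptors and had the steepest fall of the 3 after 48 h. It measured 15.2, 15.6 and 18.2 CPM in WT-labelled myoblasts, 14.4, 13.5 and 14.5 CPM at 48 h, and 1.64, 1.84, 1.85 and 1.36 CPM at 72 h. Under the Glud1KO label it measured 12.4, 13.3 and 15.4 CPM, then 9.79 and 10.4 CPM, then 1.38, 1.33, 1.36 and 1.66 CPM. From 48 to 72 h it fell 8.59-fold under the WT label (adjusted p 1.45e-18, edgeR) and 7.06-fold under the Glud1KO label (adjusted p 2.06e-15). At 48 h both Glud1KO-labelled libraries were below all WT-labelled ones, 1.40-fold lower (log2 fold change -0.49 ± 0.11 SE, adjusted p 0.00103, edgeR), and corrected for effective transcript length the log2 fold change was -0.64 ± 0.22 SE, which did not pass the test (adjusted p 0.0597).

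In myoblasts Notch3 was also called, 1.20-fold lower under the Glud1KO label (adjusted p 0.0388, edgeR), with overlapping libraries, and this was lost without WT myoblast replicate 3 (log2 fold change -0.17, adjusted p 0.293) and without Glud1KO myoblast replicate 1 (-0.19, adjusted p 0.219) or 2 (-0.24, adjusted p 0.125). It was also lost with the DESeq2 Wald test (-0.28, adjusted p 0.0654), with effective length, where the value was larger (-0.50 ± 0.18 SE, adjusted p 0.152), and with the length and GC trend removed (-0.13, adjusted p 0.308). Its fall from 24 to 48 h under the WT label was small (log2 fold change -0.21 ± 0.084 SE, adjusted p 0.0218, edgeR) and was lost without WT myoblast replicate 3 (-0.12, adjusted p 0.210) or WT differentiated replicate 2 (-0.17, adjusted p 0.0904). It was also lost with DESeq2 size factors (adjusted p 0.0547), the DESeq2 Wald test (0.125) and a mean of at least 1 CPM as the filter (0.0940). Genes on the other strand overlap Notch1 and Notch3, and others overlap Notch2 on its own strand. The strand used in counting is not given in the sources used here, and these neighbours held at most 2.17%, 5.28% and 3.60% of the joint counts with Notch1, Notch3 and Notch2.

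The ligands moved in opposite directions. Dll1, a Delta-like ligand, peaked at 48 h, and Jag1, a Jagged ligand, was lowest there. Promoter windows from 250 bases before to 50 after the annotated start were matched in RefSeq (GRCm38.p6) for 6 of the 10 genes, 7 windows in all, and 1 window of each ligand is shown because these genes ran opposite to each other. Dll1 has 2 windows, and the one nearer its start in GENCODE M21 is printed. Capitals mark E-boxes, the motif CANNTG bound by muscle basic helix-loop-helix factors such as Myod1 and Myog, which reads as itself on both strands. The Dll1 window is chr17:15376883-15377182 and the Jag1 window is chr2:137116471-137116770, both on the minus strand and printed 5′ to 3′ in the direction of the gene.
Dll1: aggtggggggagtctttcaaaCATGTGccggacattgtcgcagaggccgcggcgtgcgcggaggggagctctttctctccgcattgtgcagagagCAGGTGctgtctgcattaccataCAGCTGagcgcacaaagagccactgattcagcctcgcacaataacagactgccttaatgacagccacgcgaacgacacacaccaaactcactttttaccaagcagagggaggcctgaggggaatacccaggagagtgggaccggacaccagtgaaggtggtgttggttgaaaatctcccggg
Jag1: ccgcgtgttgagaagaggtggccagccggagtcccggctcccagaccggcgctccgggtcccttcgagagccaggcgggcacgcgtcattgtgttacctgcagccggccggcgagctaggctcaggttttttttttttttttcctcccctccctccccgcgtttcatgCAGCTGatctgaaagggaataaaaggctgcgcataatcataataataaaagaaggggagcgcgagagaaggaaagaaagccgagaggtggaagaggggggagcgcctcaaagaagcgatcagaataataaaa
The Dll1 window held 3 E-boxes, at -229, -155 and -132 from the start, and the Jag1 window held 1, at -82. The other Dll1 window, at chr17:15375774-15376073, held 1 match, and the windows of Pax7, Notch1, Notch2 and Notch3 held none, so that 3 of the 7 windows had an E-box. Of all 32851 windows of this length, 72.3% held at least 1 E-box. The letters TGGGAA, the core of the site known for Rbpj, were found on neither strand of the 7 windows and in 25.6% of all windows, and its long form CGTGGGAA was likewise in none of the 7 and in 0.734% of all. These counts describe letters in a short window and say nothing of binding.

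Dll1 (chr17:15367354-15376872, minus strand) measured 13.1, 11.7 and 11.0 CPM in WT-labelled myoblasts, 27.7, 30.1 and 28.0 CPM at 48 h, and 11.9, 12.3, 12.5 and 10.8 CPM at 72 h. Glud1KO-labelled libraries gave 11.5, 11.7 and 11.9 CPM, then 21.1 and 19.8 CPM, then 12.0, 11.6, 11.2 and 12.7 CPM. The rise and the return were present under both labels, and the peak was lower in the 2 Glud1KO-labelled libraries, with no overlap at 48 h. The difference was 1.40-fold (log2 fold change -0.48 ± 0.074 SE, adjusted p 1.73e-05, edgeR). Corrected for effective transcript length it had nearly the same size (-0.46) but did not pass the test (adjusted p 0.0929). The rise from 24 to 48 h was 2.39-fold under the WT label (adjusted p 7.12e-16, edgeR) and 1.75-fold under the Glud1KO label (adjusted p 3.49e-10).

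Jag1 (chr2:137081456-137116644, minus strand) measured 4.11, 4.49 and 3.84 CPM in WT-labelled myoblasts, 1.33, 0.914 and 1.23 CPM at 48 h, and 2.56, 2.79, 2.41 and 3.17 CPM at 72 h. In Glud1KO-labelled libraries the values were 5.67, 4.38 and 4.91 CPM, then 0.642 and 0.734 CPM, then 1.88, 2.17, 1.83 and 2.46 CPM. The low point at 48 h was present under both labels, and the Glud1KO-labelled libraries lay below the WT-labelled ones there without passing the test (log2 fold change -0.75 ± 0.29 SE, adjusted p 0.0592, edgeR). Without WT differentiated replicate 2, its lowest library, the difference was called (-0.88, adjusted p 0.0310), and so it was with library size alone as scaling and with the replicate numbers as a block. Jag2, the other Jagged ligand, measured 51.5 ± 2.01, 91.6 ± 4.49 and 89.8 ± 3.52 CPM at the 3 stages under the WT label (SD, n = 3, 3 and 4). Jag2 was lower under the Glud1KO label in myoblasts (40.5 ± 2.05 CPM, log2 fold change -0.35, adjusted p 5.55e-05, edgeR) and in fused myotubes (81.5 ± 3.04 CPM, -0.14, adjusted p 0.0356). Dll3 and Dll4 did not pass the filter, with no library above 0.321 CPM.

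Of the 3 effectors, Hes1 was the most abundant, at 36.1 TPM in WT-labelled myoblasts beside 1.15 for Hey1 and 0.474 for Heyl. Hes1 (chr16:30064384-30067796, plus strand), a transcriptional repressor switched on by the cut receptor, measured 30.5, 29.8 and 30.9 CPM in WT-labelled myoblasts, 8.72, 7.88 and 8.38 CPM at 48 h, and 19.1, 18.0, 19.4 and 20.1 CPM at 72 h. Under the Glud1KO label it measured 31.9, 29.8 and 30.2 CPM, then 4.60 and 4.35 CPM, then 19.7, 17.7, 18.6 and 17.6 CPM. The labels overlapped at 24 and 72 h and were separate at 48 h, where the low point was 1.86-fold lower under the Glud1KO label (log2 fold change -0.89 ± 0.10 SE, adjusted p 2.17e-07, edgeR). This call was made in each of the 28 alternative settings, with log2 fold changes from -0.95 to -0.82. From 48 to 72 h Hes1 rose 2.31-fold under the WT label (adjusted p 1.73e-15, edgeR) and 4.11-fold under the Glud1KO label (adjusted p 5.32e-17).

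Hey1 and Heyl, 2 related repressors, were near the limit of counting, on 10 to 61 and 7 to 37 estimated counts per library. Hey1 (chr3:8663359-8667256, minus strand) measured 1.38 to 2.00 CPM in WT-labelled myoblasts, 1.94 to 2.15 CPM at 48 h and 0.634 to 1.30 CPM at 72 h. It fell 2.22-fold between 48 and 72 h under the WT label (adjusted p 3.55e-05, edgeR), while under the Glud1KO label it measured 1.76 and 1.05 CPM at 48 h and 0.999 to 1.41 CPM at 72 h (adjusted p 0.741). Between the labels at 48 h Hey1 was not called (log2 fold change -0.55 ± 0.25 SE, adjusted p 0.114, edgeR). Without Glud1KO differentiated replicate 1, the higher of that pair, the adjusted p was 0.0448 (-0.96), which rests on 1 Glud1KO-labelled library and on the spread of the other groups.

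Heyl (chr4:123233556-123249875, plus strand) measured 0.949, 0.562 and 0.835 CPM in WT-labelled myoblasts and 0.200, 0.425 and 0.556 CPM in Glud1KO-labelled ones. The groups did not overlap, and the difference did not pass the test (log2 fold change -1.03 ± 0.37 SE, adjusted p 0.0695, edgeR), although it did without WT fused replicate 4 (adjusted p 0.0481), with no filter (0.0331) and when the 2 groups were fitted alone (0.0412). Heyl rose 2.24-fold from 24 to 48 h under the Glud1KO label (adjusted p 0.0159, edgeR). That call was lost with library size alone as scaling (0.86, adjusted p 0.0706), without Glud1KO myoblast replicate 1 (log2 fold change 0.83, adjusted p 0.0802) or Glud1KO differentiated replicate 2 (1.03, adjusted p 0.106). At 72 h Heyl measured 0.659 to 1.69 CPM under the WT label and 1.06 to 1.69 CPM under the Glud1KO label.

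Between the labels, 4 of the 10 genes were called at 48 h, all lower under the Glud1KO label: Pax7, Hes1, Dll1 and Notch3. With library size alone as scaling 6 were called, and with effective length 2. In that comparison 25.2% of all genes tested were called, 11.1% higher and 14.1% lower. The median log2 fold change of the 10 genes was -0.52, beside -0.01 for all genes tested, and all 10 had a negative value (7 of 10, with Notch2 called higher, once the length and GC trend of each library was removed). At 24 h 1 gene was called, lower, where 11.5% of all genes were called (4.86% higher and 6.67% lower), and at 72 h 1 gene was called, lower, where 13.0% were called (6.33% higher and 6.68% lower). Both counts are close to the background. The plot of fold changes by stage sets the 3 comparisons side by side.

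**Figure D2:**
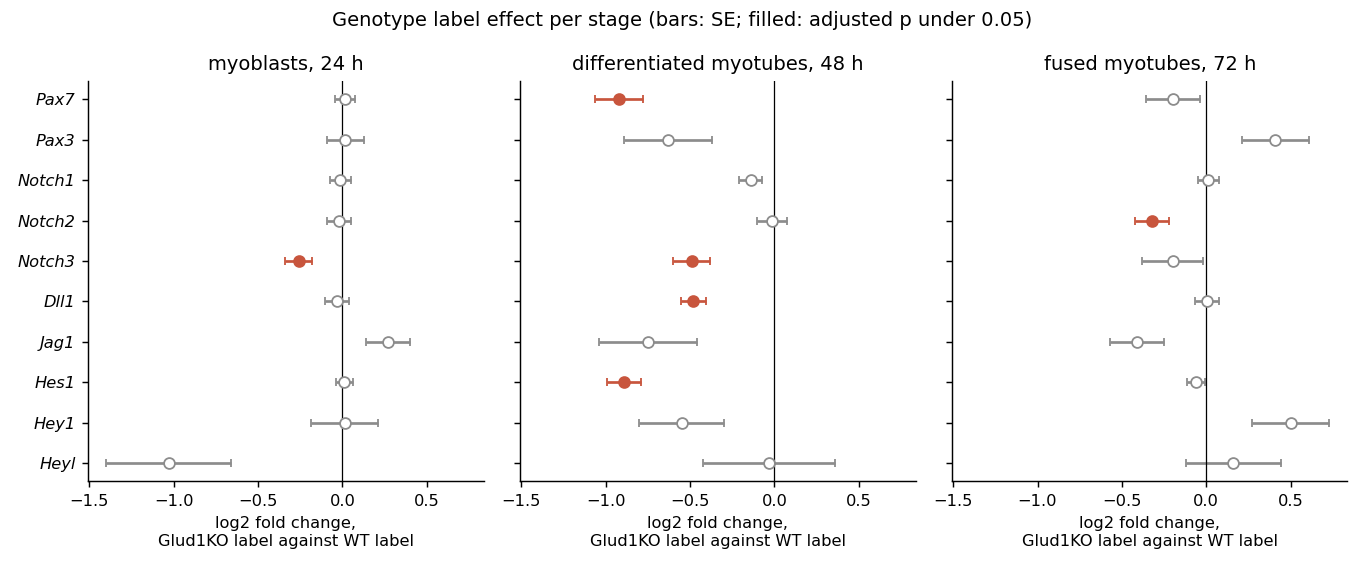
Log2 fold change of the Glud1KO label against the WT label (x axis) for the 10 genes in myoblasts, differentiated myotubes and fused myotubes, with SE as bars and filled points where the adjusted p was under 0.05. The filled points at 48 h are Pax7 at -0.92, Notch3 at -0.49, Dll1 at -0.48 and Hes1 at -0.89.

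The effect of the label itself differed between stages for several of these genes, tested as an interaction in the same fit. From 24 to 48 h, 4 genes had a more negative label effect and none a more positive one, against 19.1% of all genes (7.78% higher and 11.3% lower). They were Jag1 (-1.02 ± 0.31 SE, adjusted p 0.0227, edgeR), Pax7 (-0.93 ± 0.15, adjusted p 4.08e-05), Hes1 (-0.91 ± 0.11, adjusted p 1.58e-06) and Dll1 (-0.45 ± 0.10, adjusted p 0.00230). Corrected for effective transcript length, Dll1's change was -0.35 and did not pass the test (adjusted p 0.432). Jag1's call was lost with the DESeq2 Wald test (adjusted p 0.0518), without WT differentiated replicate 1 (0.0573) or 3 (0.0551) and without Glud1KO differentiated replicate 1 (0.120) or 2 (0.0700).

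From 48 to 72 h the label effect became more positive for 5 genes and more negative for none, against 14.8% of all genes (8.27% higher and 6.54% lower). Notch2 (-0.30, adjusted p 0.131, edgeR) was called more negative with no filter (adjusted p 0.0118), with the length and GC trend removed (-0.42, adjusted p 0.00292) and without Glud1KO fused replicate 4 (-0.39, adjusted p 0.0317). Hes1 changed by 0.83 ± 0.12 (SE, adjusted p 1.26e-05, edgeR), Dll1 by 0.49 ± 0.10 (adjusted p 0.00162) and Pax7 by 0.72 ± 0.21 (adjusted p 0.0206). Pax3 (1.04 ± 0.33, adjusted p 0.0473, edgeR) and Hey1 (1.05 ± 0.34, adjusted p 0.0384) were each lost with effective length, the DESeq2 Wald test or the groups compared alone. For each gene the call was also lost when any 1 of 8 libraries was left out. Those included Glud1KO differentiated replicate 1 for Pax3 and replicate 2 for Hey1. Pax3 was further lost with no filter and with the length and GC trend removed, and Hey1 with the replicate block. Corrected for effective transcript length, Dll1 (0.38, adjusted p 0.393) and Pax7 (0.86, adjusted p 0.0559) did not pass the test, nor did Pax7 when the groups compared were fitted alone (0.71, adjusted p 0.0550). Pax7 was lost without WT fused replicate 4 (0.59, adjusted p 0.0531), Glud1KO differentiated replicate 1 (0.58, adjusted p 0.122) or Glud1KO fused replicate 2 (0.52, adjusted p 0.0833). Between 2 and 6 of the 10 genes were called when a library was left out.

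Some other genes of the satellite cell were also lower at 48 h. Of a list of 20 such genes, 18 were tested and 8 were called, all lower under the Glud1KO label, against the 14.1% of all genes called lower, with a list median of -0.19; with the length and GC trend removed 6 were called lower and 2 higher. The fall was largest in Col5a3 (a collagen V chain; 2.35 ± 0.361 CPM against 0.951 ± 0.211, log2 fold change -1.31), followed by the heparan sulphate proteoglycan Sdc3 (39.5 ± 3.36 CPM against 20.7 ± 1.02, -0.93), the chemokine receptor Cxcr4 (-0.72) and the receptor Met (-0.62), all named after their values were seen (SD, n = 3 and 2). The list's most abundant genes, Itga7, Cdh15, Megf10 and Sdc4, were not called there, with log2 fold changes of -0.005, 0.10, 0.07 and -0.10. At 24 h the list had 1 gene higher and 3 lower, where 4.86% and 6.67% of all genes were called, and at 72 h 2 higher and 2 lower, where 6.33% and 6.68% were. The label effect became more negative from 24 to 48 h in 6 of the 18 and more positive in 1, against 11.3% and 7.78% of all genes. From 48 to 72 h it became more positive in 7 and more negative in none, against 8.27% and 6.54%. Calcr, a marker of quiescent satellite cells, reached at most 0.0352 CPM in any library.

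In the same libraries 2 genes of cell division, Mki67 and Top2a, were lower. They belong to a check list of 8 differentiation and division genes, of which 2 were higher and 3 lower under the Glud1KO label at 48 h. Mki67, a marker of cycling cells, measured 4.65 ± 0.503 CPM under the WT label and 0.792 ± 0.288 under the Glud1KO label at 48 h (SD, n = 3 and 2; log2 fold change -2.55, adjusted p 4.45e-08, edgeR), and the topoisomerase Top2a measured 7.46 ± 1.29 and 1.38 ± 0.319 CPM (-2.45, adjusted p 2.60e-10). In myoblasts Mki67 had been at 199 ± 17.2 and 215 ± 2.69 CPM (SD, n = 3 and 3). Of the differentiation genes, Myog (-0.01, adjusted p 0.953, edgeR), Myh3 (-0.01) and Ckm (0.08) were not called at 48 h, Myod1 was lower (-0.31, adjusted p 1.58e-04), and the fusion genes Mymk (0.28) and Mymx (0.67) were higher. In myoblasts 4 of the 8 genes of the check list were lower under the Glud1KO label, Myog (-0.63), Mymk (-0.45), Myh3 (-0.92) and Ckm (-0.81), with a list median of -0.25, where 6.67% of all genes were called lower. The label effect changed from 24 to 48 h in all 8: it became more positive in these 4 and in Mymx and more negative in Myod1, Mki67 and Top2a. The part of remaining undifferentiated or dividing cells in the lower Pax7, Hes1, Dll1 and Notch3 was not tested, and in these bulk libraries fewer cells of a kind and less RNA per cell cannot be told apart. The fibro-adipogenic list also moved with the label. Its 6 markers summed to 12.1 to 13.2 CPM in WT-labelled and 6.91 to 9.28 CPM in Glud1KO-labelled myoblasts, 0.871 to 1.28 and 0.374 to 0.944 CPM at 48 h, and 2.71 to 3.38 and 2.47 to 3.46 CPM at 72 h. Of its 3 tested genes, 2 were lower under the Glud1KO label at 24 h (Ly6a and Smoc2) and 1 at 48 h (Ly6a), Dpt was at 0 in every library and Lum in all but 1, and Dcn reached at most 0.190 CPM. The pericyte and smooth muscle list summed to 40.1 to 44.5 CPM in WT-labelled and 33.7 to 36.7 CPM in Glud1KO-labelled myoblasts, where Notch3 was also lower, and to 73.4 to 83.8 and 78.3 to 80.2 CPM at 48 h. Of its 4 tested genes, Rgs5 (log2 fold change -0.25) and Cspg4 (-0.86) were lower at 24 h, and at 48 h Cspg4 was lower (-1.26) and Myh11 higher (1.25). The Schwann cell list summed to 2.77 to 3.51 and 1.67 to 2.26 CPM at 24 h, 2.23 to 3.31 and 2.94 to 2.99 CPM at 48 h, and 2.39 to 3.24 and 3.26 to 4.34 CPM at 72 h. Of its 2 tested genes, Ngfr was lower at 24 h and higher at 72 h. The part of these cell types in the member results was not tested.

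**Figure D3:**
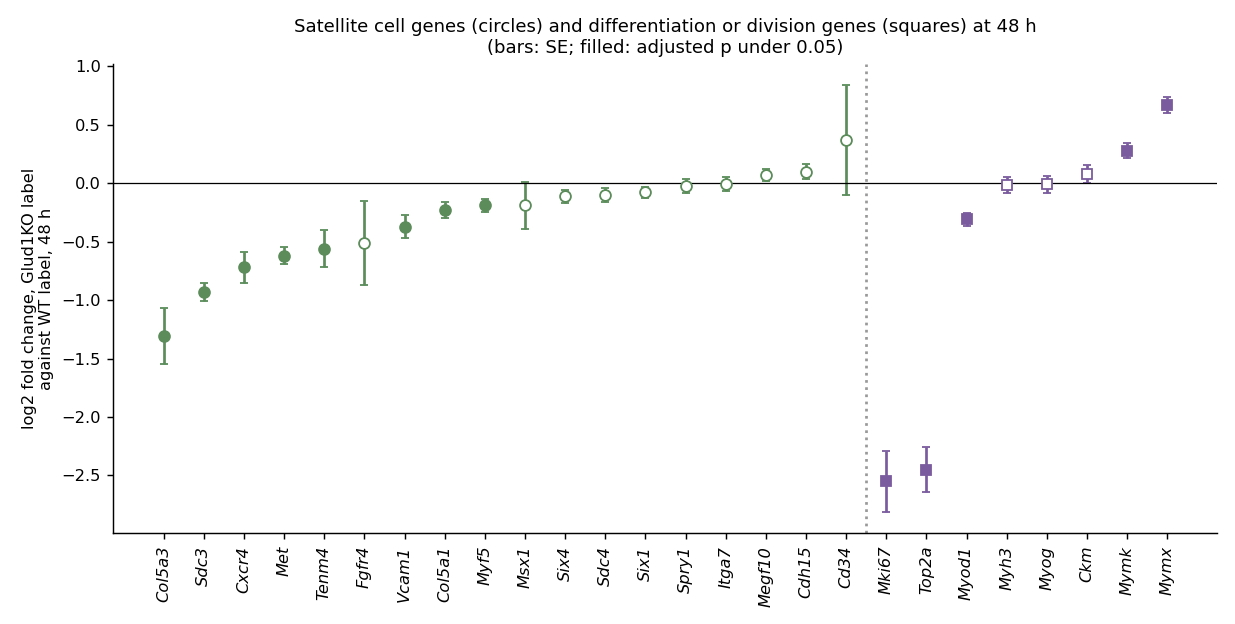
Log2 fold change of the Glud1KO label against the WT label at 48 h (y axis) for the 18 tested satellite cell genes (circles) and 8 differentiation or division genes (squares), with SE as bars and filled symbols where the adjusted p was under 0.05. The filled circles run from Col5a3 at -1.31 to Myf5 at -0.19, and Mki67 and Top2a are lowest at -2.55 and -2.45.

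In 4 other groups of the Notch pathway calls went in both directions between the labels at 48 h, where 11.1% of all genes were called higher and 14.1% lower. Of 10 genes that process the receptor, 2 were higher and 2 lower. Of the 4 most abundant, the convertase Furin was higher (log2 fold change 0.14, adjusted p 0.0187, edgeR), the gamma-secretase subunit Ncstn was lower (-0.15, adjusted p 0.0494), and its partners Psen2 (0.11) and Aph1a (-0.04) were not called. The protease Adam10 was also lower (-0.21), named after its value was seen. Of 5 sugar transferases that act on the receptor, 1 was lower and 1 higher. The lower was Lfng, a fringe enzyme that alters which ligand Notch responds to, at 2.34 ± 0.320 CPM under the WT label and 0.873 ± 0.100 under the Glud1KO label (SD, n = 3 and 2; log2 fold change -1.43 ± 0.25 SE, adjusted p 8.90e-05, edgeR), and the higher was Rfng (0.31, adjusted p 0.00360). Pofut1 (-0.06) and Poglut1 (-0.20) were not called. Of 9 genes of the nuclear complex, 1 was higher and 3 lower, with a median of -0.16. The coactivator Snw1 was higher (0.13, adjusted p 0.0487) and the acetyltransferase Ep300 was lower (-0.18, adjusted p 0.0264), as was Maml2 (-0.44), named after its value was seen. Rbpj was called at all 3 stages and not in 1 direction: -0.11 in myoblasts (adjusted p 0.0437, edgeR), -0.21 at 48 h (adjusted p 2.56e-04) and 0.18 at 72 h (adjusted p 6.38e-04). Its levels were 139, 138 and 65.6 CPM under the WT label and 129, 119 and 74.4 CPM under the Glud1KO label, as means. Of 11 tested inhibitors and endocytic regulators, 1 was higher and 1 lower at 48 h, Dtx3 (0.27, adjusted p 0.00441, edgeR) and Dtx4 (-0.32, adjusted p 0.0262), the latter named after its value was seen. Neurl1a (0.07), Mib1 (-0.07) and Itch (-0.02) were not called.

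Among the other Hes and Hey genes, Hes6 behaved unlike Hes1. Hes6, known for favouring muscle differentiation, measured 224 ± 12.2, 1020 ± 88.0 and 353 ± 8.17 CPM at the 3 stages under the WT label and 220 ± 11.0, 973 ± 30.6 and 398 ± 17.2 CPM under the Glud1KO label (SD). It rose from 24 to 48 h where Hes1 fell (log2 fold change 2.19, adjusted p 2.28e-23, edgeR), and it was not called between the labels at 48 h (-0.07, adjusted p 0.460), while at 72 h it was higher under the Glud1KO label (0.17, adjusted p 0.0132). Nrarp, a feedback inhibitor that Notch itself switches on, rose from 0.316 ± 0.0865 to 1.49 ± 0.320 CPM between 48 and 72 h under the WT label (SD, n = 3 and 4; log2 fold change 2.21, adjusted p 1.08e-06, edgeR). It was not called between the labels at any stage. Hes5 was at 0 in every library, and Hes2, Hes3 and Hes7 did not pass the filter.

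Levels of different genes were compared as TPM, which is scaled for transcript length. In WT-labelled myoblasts the order was Hes1 (36.1 ± 0.179 TPM), Pax7 (26.6 ± 1.59), Notch1 (16.7 ± 1.13), Notch2 (13.4 ± 1.38), Dll1 (7.35 ± 1.54), Pax3 (3.34 ± 0.190), Notch3 (3.15 ± 0.101), Jag1 (1.36 ± 0.118), Hey1 (1.15 ± 0.207) and Heyl (0.474 ± 0.456), each with its SD over 3 libraries. Neighbours from Pax3 to Notch3 and from Jag1 to Hey1 to Heyl lay within reach of each other's spread. At 48 h the order opened with Notch1 (23.0 ± 1.58 TPM), Dll1 (14.9 ± 3.17), Hes1 (9.14 ± 0.714) and Notch2 (8.06 ± 0.716), and Pax7 stood at 2.40 ± 0.433. At 72 h Hes1 led again (19.2 ± 1.13 TPM), followed by Notch1 (7.01 ± 0.274) and Dll1 (5.69 ± 0.974), and the other 7 genes were at 2.35 TPM or below. The Glud1KO-labelled libraries gave the same leading gene at each stage, Hes1 at 36.9 ± 0.987, Notch1 at 19.4 ± 1.51 and Hes1 at 18.1 ± 1.32 TPM.

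**Figure D4:**
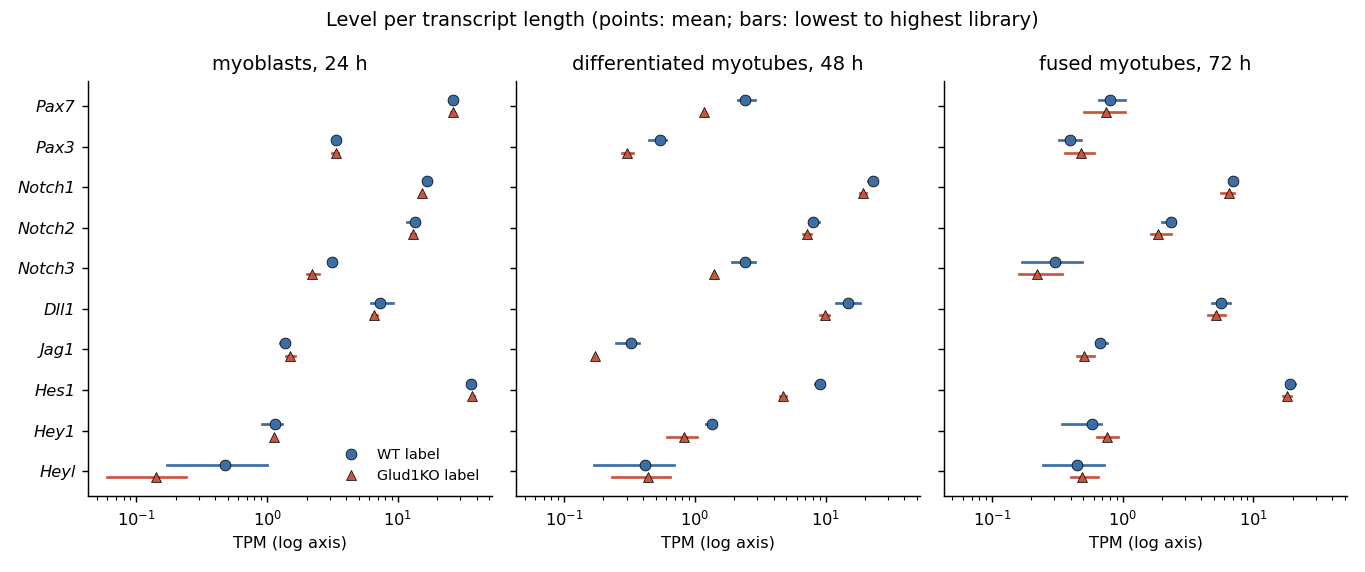
TPM of the 10 genes (x axis, log scale) at the 3 stages in WT-labelled (circles) and Glud1KO-labelled (triangles) libraries, with points at the mean and bars from the lowest to the highest library. Hes1 leads in myoblasts and fused myotubes (36.1 and 19.2 TPM under the WT label) and Notch1 at 48 h (23.0 TPM).

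Across the 19 libraries the log2 CPM of some members ran together, a description in which the points share stage and library. Pearson's r was 0.98 for Notch2 and Notch3, 0.96 for Hes1 and Jag1, 0.95 for Pax7 and Pax3, and -0.81 for Hes1 and Dll1. Among 12367 other genes with a mean of at least 1 CPM, those most like Pax7 were Gm9732 (r = 0.997), Sgpl1 (0.995) and Irak1 (0.995). Gm9732 fell with Pax7, from 8.25 CPM in WT-labelled myoblasts to 0.377 CPM at 48 h and 0.0273 CPM at 72 h, as means. Those most like Notch1 were Zfp57 (0.993), Cdh2 (0.992) and Mical2 (0.990), and those most like Jag1 were Csnk1g3 (0.985), Ank3 (0.976) and Dmp1 (0.974). For Heyl, whose counts were lowest, the nearest genes were Ergic3 (0.816), Smoc1 (0.802) and Fads6 (0.797).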

How the data were processed

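Polyadenylated RNA was sequenced from the 19 libraries. Per the submitters' processing notes, bcl2fastq 2.20, fastp 0.20.0, kallisto 0.46.1, edgeR 3.36 and the build GRCm38.p6 were used; no order or setting is given there. The authors deposited, per the file headers, an estimated count, a TPM value and an effective length for each of 121843 transcripts. Transcripts were assigned to genes with GENCODE M21; 739 had no match and held 0.244% to 0.496% of a library's counts. Estimated counts were summed per gene and rounded. The 22 pairs of replicates differed by more than sampling noise (chi-square per degree of freedom 2.09 to 7.36), so none was counted as a copy. edgeR 4.0.16 (R 4.3.3) fitted all 19 libraries with 1 coefficient per group, because 1 group had 2 libraries, after filterByExpr and TMM scaling, with quasi-likelihood tests in 9 comparisons. SE is the log2 fold change divided by the root of F. Deposited TPM values were summed per gene and served to order genes by level and, for Glud1, to set the labels side by side. The script was tested on simulated data.

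The members and gene lists were chosen with earlier results of these data known. Of each list the 4 genes with the highest mean CPM are named, with any gene called in all 3 label comparisons, except a few that are not reported here; genes most like Pax7, Notch1, Heyl and Jag1 are the 3 with the highest r. Alternatives were DESeq2 size factors, library size alone, the DESeq2 1.42.0 Wald test, no filter, a mean of at least 1 CPM, only the groups compared, effective length, length and GC content, a replicate block, and each library left out. Promoter windows come from RefSeq.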

Additional observations from a re-analysis of the deposited data

Results flagged for a closer look

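The 10 genes and Glud1 were each examined in the WT-labelled and the Glud1KO-labelled fused myotubes, the groups with 4 libraries. This gave 22 sets of 4 values, and in 3 sets a library stood apart from the others. Chance marks about 1 in 20 such sets, but these sets reuse the same libraries and are not independent. All 3 were Glud1KO-labelled fused myotubes, and the library was replicate 4 for Notch3 and Hey1 and replicate 3 for Glud1. The gap to the nearest library was 0.862 of the whole range in Notch3 (1.66 CPM against 1.33 to 1.38), 0.938 in Hey1 (0.999 against 1.38 to 1.41) and 0.838 in Glud1 (139 against 130 to 132). Hey1 rested there on 15 estimated counts in replicate 4 and 22 to 33 in the others, and Notch3 on 25 and 22 to 32.

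The effect of the genotype label differed between stages in 9 results, each by the interaction test in edgeR. From 24 to 48 h the log2 change in the label effect was -0.93 in Pax7, -0.91 in Hes1, -0.45 in Dll1 and -1.02 in Jag1. From 48 to 72 h it was 0.72 in Pax7, 1.04 in Pax3, 0.83 in Hes1, 1.05 in Hey1 and 0.49 in Dll1. Those 2 sets of tests share the libraries of 48 h, of which 2 carry the Glud1KO label.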

How the results depend on the processing

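Of 2509 member values under 28 alternatives, 2425 kept their side of the threshold (uncalled values near 0 could change sign), 69 lost a call, 13 gained one and 2 turned sign with a call: removing each library's trend with length and GC content gave Notch1 0.12 in myoblasts (adjusted p 0.0399, edgeR) and Notch2 0.18 at 48 h (0.0296). Correcting for effective length lowered the genes called to 587 at 24 h (1744 in the reported fit), 2146 at 48 h (3813) and 821 at 72 h (1968), and to 1452 (2892) and 982 (2241) in the interactions; members called became 0, 2, 0 and, for the 48 to 72 h interaction, 1. Fitting only the groups compared gave 2626 genes at 24 h, with 2 members, and 2 members in that interaction. The DESeq2 Wald test gave 0 members at 24 h and 3 in that interaction; no filter gave 2 members at 24 h. The cause was not tested. Leaving out each library gave 925 to 2009 genes and 0 to 2 members at 24 h, 0 to 1 member at 72 h and 2 to 6 in the 48 to 72 h interaction; WT myoblasts replicate 3 gave the 925. The share of calls that were higher moved with scaling: at 24 h from 42.1% to 29.0% with DESeq2 size factors, and at 48 h from 43.9% to 27.0% with library size alone. Library size alone moved the median of all genes to -0.23 and -0.31 in the 24 to 48 h steps. Replicate numbers did not pair libraries (r of -0.089 to 0.10 in 41 same-numbered pairs; 4 of 19 libraries correlated best with their own number). With the replicate block 1664, 3664 and 1858 genes and 1, 5 and 1 members were called at 24, 48 and 72 h. Low counts limit Hey1, Heyl, Jag1 and Pax3.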

Other observations

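Of the genes that are not members, Ngfr, a low-affinity neurotrophin receptor, was lower under the Glud1KO label in myoblasts (log2 fold change -1.19 ± 0.18 SE, adjusted p 4.74e-05, edgeR) and higher in fused myotubes (0.48 ± 0.14, adjusted p 0.0265). Tenm4, a teneurin of the satellite cell list, was lower at 48 h (-0.56 ± 0.16, adjusted p 0.0104) and higher at 72 h (0.79 ± 0.12, adjusted p 2.55e-05), where its means were 3.01 ± 0.417 CPM under the WT label and 5.20 ± 0.304 under the Glud1KO label (SD, n = 4 and 4). Myf5, an early muscle transcription factor, was lower at 48 h (-0.19 ± 0.057, adjusted p 0.0124) and at 72 h (-0.31 ± 0.040, adjusted p 3.19e-06), with 125 ± 4.91 and 100 ± 1.08 CPM at 72 h. These genes were named after their values were seen.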
